A study of Homo sapiens with 6 samples.

Results

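The genes described here encode the secreted Hedgehog ligands (*SHH*, *IHH*), their receptors and ligand-binding proteins at the membrane (*PTCH1*, *HHIP*), the signal transducer *SMO*, the intracellular inhibitor *SUFU* and the GLI transcription factors (*GLI1*, *GLI2*, *GLI3*). Their rows were taken by symbol, and all 9 were found among the 20347 genes of the normalized count table. The RNA-seq libraries came from PaTu8988t, an established human cell line derived from pancreatic ductal adenocarcinoma (PDAC). The 3 Control replicates carried a CRISPR/Cas9 vector with an unspecific guide. The 3 *SAMD1* KO samples were clonally independent lines that carried the same type of vector with guides against *SAMD1*, a chromatin protein of CpG islands. All of them had been selected with puromycin and grown in DMEM with fetal bovine serum, and no Hedgehog ligand or inhibitor was added. Each KO sample was a single clone, so the effect of the guide and the properties of a clone can be separated only through what the 3 clones share. Effects of single-clone selection may be shared too, since it is not stated whether the Control replicates were clones.

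In the canonical pathway, the multi-pass membrane protein PTCH1 keeps SMO inactive until a Hedgehog ligand binds. Active SMO then accumulates in the primary cilium, GLI2 and GLI3 escape from SUFU and from proteolytic processing, and GLI proteins turn on their target genes. *GLI1* and *PTCH1* are themselves targets, and both are used as readouts of the pathway. In PDAC, ligand made by tumor cells is best known for acting on the surrounding stroma, while the tumor cells can also use GLI factors without SMO.

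*SAMD1* itself had 2304 ± 76.1 normalized counts in the Control replicates and 926.9 ± 136 in the KO clones (SD, n = 3 per group), a log2 fold change of −1.32 (SE 0.10, the standard error; limma adjusted p = 0.000724), with every clone below every Control library. The libraries held between 35589477 and 45172216 reads, and 3 reads correspond to 2.59 to 3.44 normalized counts. Of 8 epithelial markers, 7 were above the count minimum. *KRT8* and *KRT18* led them, whereas *KRT19*, a keratin of pancreatic ducts, had no reads in any library. The summed epithelial markers ranged from 62992.8 to 66189.1 in Control and from 67949.8 to 108873 in KO. Of 13 stromal and leukocyte markers, 6 passed the minimum, with sums of 979.1 to 997.0 and 877.0 to 1087, and *LUM*, *DCN* and *CD3E* had no reads. The part of these marker shifts in the results below was not tested, and in bulk RNA fewer cells with a transcript and less of it per cell cannot be told apart.

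A gene was called when its limma log2 fold change (KO minus Control, on log2 of the normalized count + 1) exceeded 0.5 in size at an unadjusted p below 0.01, the cut-off of the study. Of the 9 genes, 6 had a mean of at least 10 normalized counts and were tested. *GLI1* and *GLI2*, with Control means of 7.02 and 8.66, reached this minimum only through the KO libraries. *IHH*, with means of 7.19 in Control and 5.47 in KO, did not reach it. The counts and the median of the 6 below are therefore not independent of this filter. Without the filter all 9 were tested, and *PTCH1* and *GLI2* were again the 2 called higher. *PTCH1* and *GLI2* rose, which makes 2 called higher, where 5.77% of the 12773 tested genes were called higher, and 0 were called lower, where 2.08% of all tested genes were. At an unadjusted limma p below 0.05, 3 of the 6 were higher (*GLI1* being the third) and 0 lower, where 16.1% and 13.5% of all tested genes were, and edgeR and DESeq2 called 0 lower as well, where they called 1.93% and 2.07% of all tested genes lower. Of the 6, edgeR called 2 higher (*PTCH1*, *GLI2*) and DESeq2 1 (*PTCH1*), where these tools called 6.1% and 6.5% of all tested genes higher. For 4 of the 6, Control and KO libraries did not overlap (*SHH*, *PTCH1*, *GLI1*, *GLI2*), compared with 37.8% of all tested genes, and all 4 were higher in KO, compared with 19.2%. The median log2 fold change of the 6 was 0.52, against −0.0059 over all tested genes. With 3 libraries in each group, the smallest p of a two-sided exact permutation test is 0.1, which was the value for each of these 4 genes, so the adjusted p-values below are from limma.

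**Figure D1:**
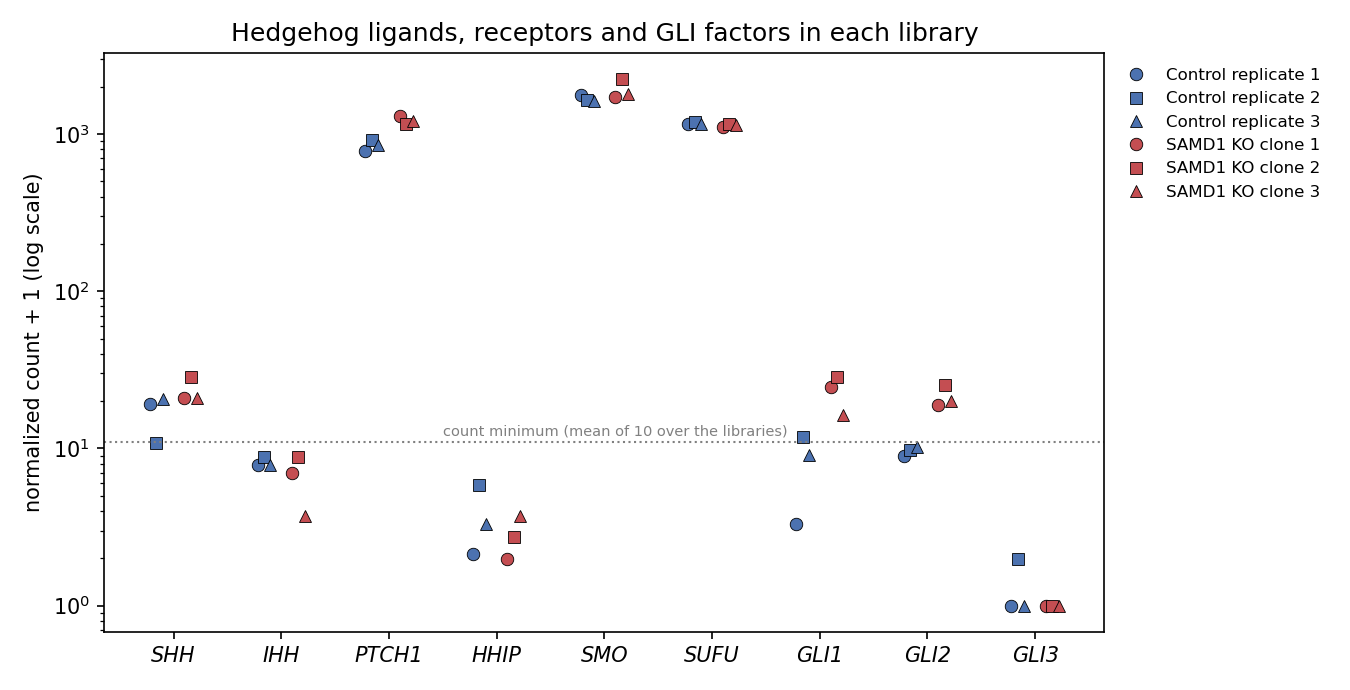
Normalized count + 1 (log axis) of the 9 genes in each library, with Control replicates in blue, *SAMD1* KO clones in red and the symbol shape giving the replicate or clone number. *SMO*, *SUFU* and *PTCH1* sit between 782.4 and 2226, *SHH*, *GLI1* and *GLI2* at 2.29 to 27.6 normalized counts, and *IHH*, *HHIP* and *GLI3* below the dotted count minimum of 10.

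Sonic hedgehog (*SHH*, chromosome 7, 155799980 to 155812463, minus strand, hg38), the ligand most studied in PDAC, had few reads. Its normalized counts were 18.3, 9.78 and 19.5 in Control replicates 1 to 3 and 19.8, 27.6 and 19.8 in KO clones 1 to 3, from 43 reads in all Control libraries and 74 in all KO libraries. The groups did not overlap, but Control replicate 3 and clones 1 and 3 differed by less than 1 normalized count. The log2 fold change was 0.51 (SE 0.34, 95% interval −0.28 to 1.30, limma adjusted p = 0.351), so a difference was not detectable at this depth. Indian hedgehog (*IHH*, chromosome 2, 219054424 to 219060921, minus strand), the ligand of growing bone and of gut epithelium, fell under the count minimum. It had 6.86, 7.83 and 6.87 normalized counts in Control and 5.93, 7.78 and 2.7 in KO, and the groups overlapped.

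Ligands must be lipid-modified and released before they can signal. Of 8 genes that serve this step or encode the third ligand, 5 were tested, and 0 were called higher and 1 lower (5.77% and 2.08% of all tested genes), and their median log2 fold change was 0.11. Desert hedgehog, *DHH*, had at most 5.93 normalized counts in any library. The gene called lower was *DISP2*, a relative of the ligand exporter *DISP1*. Its normalized counts were 459.8, 507.8 and 473.1 in Control and 214.6, 267.0 and 397.6 in KO, so the groups did not overlap but clone 3 lay much nearer to Control than the other clones. *DISP2* fell by 0.76 on the log2 scale (SE 0.21, limma adjusted p = 0.0575). This call was kept in 1 of the 6 fits that left out a library, and the log2 fold change was −0.56 without clone 1. *HHAT*, which palmitoylates the ligands, had 429.4 ± 36.1 and 462.8 ± 49.8 normalized counts (SD, n = 3 per group; log2 fold change 0.11, limma adjusted p = 0.575). *SCUBE2*, which carries released ligand, had 30.2 ± 6.34 and 39.2 ± 9.68 (log2 fold change 0.36, limma adjusted p = 0.418).

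The Hedgehog receptor *PTCH1* (chromosome 9, 95442980 to 95517057, minus strand) was the member with the smallest p. Normalized counts were 782.4, 913.8 and 853.4 in Control replicates 1 to 3 and 1292, 1165 and 1213 in KO clones 1 to 3. Every clone was above every Control replicate, and the clones lay between 1.37 and 1.52 times the Control mean. The mean rose from 849.9 ± 65.8 to 1223 ± 64.5 (SD, n = 3 per group), a 1.44-fold difference and a log2 fold change of 0.53 (SE 0.082, 95% interval 0.33 to 0.72, limma adjusted p = 0.00807). Of all tested genes, 3.82% had a smaller p. Its neighbours on the chromosome had a median log2 difference to Control of 0.071, −0.0056 and −0.19 in clones 1 to 3. The *PTCH1* value of 0.53 stands just beyond the fold limit. It was 0.47 without Control replicate 1 and 0.49 without clone 1, which are not called. The adjusted p stayed between 0.0106 and 0.0499 in the 6 fits that left out a library.

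*PTCH1* is shown with its promoter because it was the single member with a GLI consensus there. The letters GACCACCCA are the core of the binding site shared by the GLI factors. They were searched on both strands in the 250 bases before each RefSeq transcript start (GRCh38.p14). They occurred in 70 of 35116 windows, or 0.199%. *GLI1* and *GLI3* had no entry in this table, and 7 of the 9 members were matched. In the lists described below, 0 of the 18 matched GLI target genes and 1 of the 24 matched cilium genes had the GLI consensus. GCGC, the letters that the study gives as the preferred motif of SAMD1, was also counted. It occurred in 53.4% of all windows. Each of the 7 matched members had it in at least 1 window. The window at the main *PTCH1* start held 1 copy, and its other windows 0 to 4. *SHH* held 2 copies, *SUFU* 3, *SMO* 4, *IHH* 7 and *HHIP* 8, and the *GLI2* windows held 5 and 1. Of the co-receptor genes described below, *GPC1* held 8 copies, *GAS1* 2, and *BOC* 1 and 4 in its windows. A number of 8, as in *HHIP* (with overlapping matches) and *GPC1* (without), was reached by 5.10% of all windows. Counts from 0 to 8 occurred among windows of genes that rose, and counts from 2 to 8 among those of genes that were not called or not tested. The window of *PTCH1* (chr9:95509267-95509516, minus strand) is printed with the GLI consensus in capitals, 172 bases before the start. Those of *SUFU* (chr10:102503722-102503971, plus strand) and *GPC1* (chr2:240435413-240435662, plus strand) are printed with GCGC in capitals, as examples of windows with 3 and 8 copies. A match describes these letters, and binding was not analysed here.
PTCH1: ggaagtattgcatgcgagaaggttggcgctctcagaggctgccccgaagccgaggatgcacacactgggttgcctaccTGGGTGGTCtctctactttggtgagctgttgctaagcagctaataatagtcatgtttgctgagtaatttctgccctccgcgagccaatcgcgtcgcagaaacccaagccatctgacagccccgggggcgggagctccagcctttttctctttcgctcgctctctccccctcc
SUFU: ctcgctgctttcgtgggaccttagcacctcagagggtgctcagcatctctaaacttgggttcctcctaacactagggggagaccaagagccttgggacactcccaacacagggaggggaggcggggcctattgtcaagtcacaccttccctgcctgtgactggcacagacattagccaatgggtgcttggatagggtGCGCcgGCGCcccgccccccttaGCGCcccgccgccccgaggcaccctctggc
GPC1: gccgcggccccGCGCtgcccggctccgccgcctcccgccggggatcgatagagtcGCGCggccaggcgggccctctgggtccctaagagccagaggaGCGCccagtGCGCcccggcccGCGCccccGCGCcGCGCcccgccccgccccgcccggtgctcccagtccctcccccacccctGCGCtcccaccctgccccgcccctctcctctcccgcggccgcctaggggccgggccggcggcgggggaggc

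*HHIP* (chromosome 4, 144646156 to 144745271, plus strand), a decoy that binds ligand at the cell surface and is itself a pathway target, was under the count minimum. Its normalized counts were 1.14, 4.89 and 2.29 in Control and 0.989, 1.73 and 2.7 in KO, with 5 reads as the highest number in a library.

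At the cell surface, further proteins present ligand to PTCH1 or hold it back. Of 10 genes for co-receptors, glypicans and other ligand-binding proteins, 8 were tested, 4 rose (*BOC*, *GAS1*, *GPC1*, *GPC4*) and 0 were called lower, against 5.77% and 2.08% of all tested genes. All 8 had a log2 fold change above 0, with a median of 0.72, against 48.8% of all tested genes above 0. At an unadjusted limma p below 0.05, there were 4 higher and 0 lower, against 16.1% and 13.5% of all tested genes.

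*BOC* (chromosome 3, 113211003 to 113287459, plus strand), an immunoglobulin-type co-receptor that binds SHH together with PTCH1, had the largest difference of these 8 genes. It had 29.7, 35.2 and 20.6 normalized counts in Control and 98.9, 304.1 and 222.2 in KO clones 1 to 3. All clones were above Control, and they differed among each other, from 3.47 to 10.7 times the Control mean. The log2 fold change was 2.71 (SE 0.42, limma adjusted p = 0.00749), and it was called in all 6 fits that left out a library. *CDON*, the close relative of *BOC*, had 502.2, 519.5 and 528.1 normalized counts in Control and 569.6, 501.1 and 594.5 in KO, and its log2 fold change was 0.10 (95% interval −0.12 to 0.32, limma adjusted p = 0.510).

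*GAS1* (chromosome 9, 86944362 to 86947506, minus strand), a membrane-anchored co-receptor with no transmembrane domain, had 38.9, 56.7 and 59.6 normalized counts in Control and 95.9, 114.9 and 89.0 in KO. The mean rose from 51.7 ± 11.2 to 99.96 ± 13.4 (SD, n = 3 per group; log2 fold change 0.95, SE 0.22, limma adjusted p = 0.0307). *GPC1*, a glypican that holds ligands through its heparan sulfate chains, had 1105, 1396 and 1125 normalized counts in Control and 1854, 2854 and 2071 in KO (log2 fold change 0.89, SE 0.17, limma adjusted p = 0.0162). For both genes the lowest clone was above the highest Control library. The genes around *GPC1* had median log2 differences of 0.17, 0.21 and 0.24 from Control in clones 1 to 3. With these regional medians removed, the log2 fold change of *GPC1* was 0.68, which is still called.

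The other glypican called, *GPC4* (chromosome X), had 728.6, 711.3 and 704.5 normalized counts in Control and 1656, 1012 and 1078 in KO (log2 fold change 0.77, SE 0.18, limma adjusted p = 0.0317). Clone 1 was the highest, and in this clone the genes around *GPC4* had a median log2 difference of 0.94 from Control, against −0.062 and −0.0064 in clones 2 and 3. After the regional medians were removed, the log2 fold change was 0.47, which is not called, and the call was also lost without any single Control replicate. *GPC3* and *GPC5*, 2 further glypicans, had overlapping libraries and log2 fold changes of 0.47 and 0.68 that did not pass. *GPC3* lies near *GPC4* on chromosome X. The genes around *GPC3* had median log2 differences of 0.96, −0.046 and −0.0064 from Control in clones 1 to 3. *GPC3* and *GPC4* are thus not independent in the counts of this list.

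**Figure D2:**
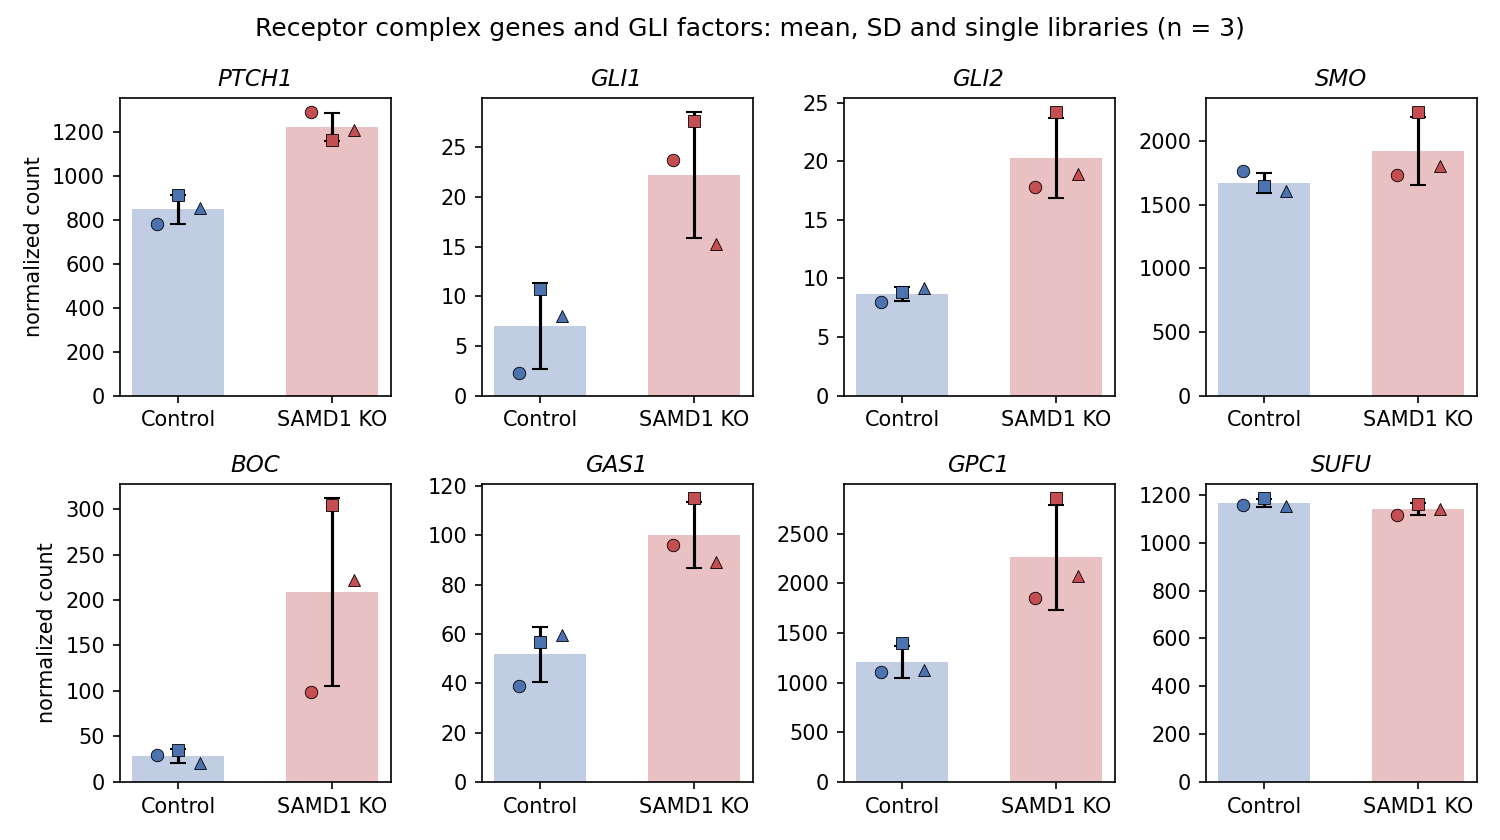
Normalized counts of 8 genes in Control (blue) and *SAMD1* KO (red), with bars for the mean, error bars for the SD (n = 3) and symbols for single libraries, each panel on its own axis from 0. *PTCH1*, *GLI1*, *GLI2*, *BOC*, *GAS1* and *GPC1* have no overlap between the groups, with *BOC* spread from 98.9 to 304.1 in the clones, while *SMO* and *SUFU* overlap.

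*SMO* (chromosome 7, 129188633 to 129213545, plus strand), the membrane protein that PTCH1 holds in check, had 1763, 1645 and 1609 normalized counts in Control and 1729, 2226 and 1805 in KO. Clone 2 stood above the rest, and clone 1 lay within the Control range. The means were 1672 ± 80.3 and 1920.4 ± 268 (SD, n = 3 per group), and the log2 fold change of 0.19 did not pass (95% interval −0.047 to 0.43, limma adjusted p = 0.256). *SUFU* (chromosome 10, 102503972 to 102633535, plus strand), which retains GLI proteins in the cytoplasm, was the most even member. It had 1159, 1185 and 1155 normalized counts in Control and 1114, 1163 and 1141 in KO, with overlapping groups. The log2 fold change was −0.033 (95% interval −0.17 to 0.10, limma adjusted p = 0.746), an interval that lies inside the fold limit on both sides.

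Between SMO and the GLI factors, the signal passes through kinases, adaptors and ubiquitin ligases. Of 29 such genes, 28 were tested and 0 were called in either direction by limma, where 7.85% of all tested genes were, with a median log2 fold change of 0.0026. At an unadjusted limma p below 0.05, 5 were higher and 5 lower, against 16.1% and 13.5% of all tested genes. *GPR161*, a ciliary receptor that restrains the pathway through protein kinase A, had 1287 ± 28.4 normalized counts in Control and 1667 ± 87.2 in KO (SD, n = 3 per group; log2 fold change 0.37, limma adjusted p = 0.0116). *IQCE*, which anchors the EVC complex at the cilium base, had 788.3 ± 36.0 and 979.2 ± 76.9 (log2 fold change 0.31, limma adjusted p = 0.0499), and *ARRB2*, a beta-arrestin, had 1893 ± 86.3 and 1544 ± 131 (log2 fold change −0.30, limma adjusted p = 0.0476). All 3 stayed under the fold limit.

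Vertebrate Hedgehog signaling runs through the primary cilium, so genes of its transport machinery and transition zone were counted as well. All 27 passed the count minimum, 1 rose and 0 were called lower, against 5.77% and 2.08% of all tested genes. The differences were small and mostly of 1 sign, with 24 of the 27 above 0, against 48.8% of all tested genes, and a median log2 fold change of 0.16. At an unadjusted limma p below 0.05, 11 were higher and 0 lower, where 16.1% and 13.5% of all tested genes were. Of the 27, 6 were higher at an adjusted p below 0.05, compared with 8.32% of all tested genes. *IFT140*, a subunit of the retrograde transport complex, rose from 753.2 ± 60.5 to 1123 ± 123 normalized counts (SD, n = 3 per group; log2 fold change 0.57, SE 0.10, limma adjusted p = 0.0136), and was at 0.49 without clone 2. *B9D1*, of the transition zone, had 1461 ± 31.3 and 1985 ± 165 (log2 fold change 0.44, limma adjusted p = 0.0111). *IFT172*, of the anterograde complex, had 1032 ± 6.90 and 1339.6 ± 70.9 (log2 fold change 0.37, limma adjusted p = 0.0122).

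**Figure D3:**
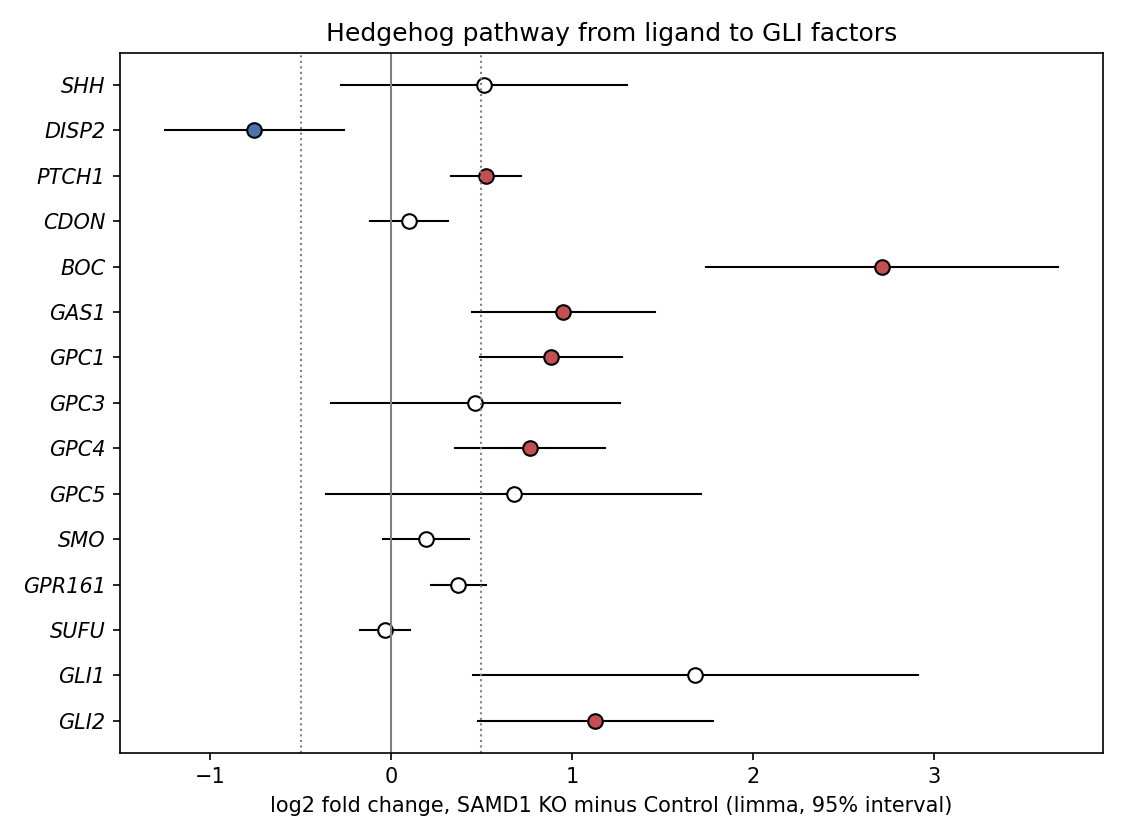
Limma log2 fold change (KO minus Control) with its 95% interval for pathway genes in order from ligand to GLI factors, where red points were called higher, the blue point was called lower, white points were not called and dotted lines mark the fold limit of 0.5. The interval of *SUFU* is narrow around −0.033, and that of *GLI1* runs from 0.45 to 2.92.

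*GLI1* (chromosome 12, 57459785 to 57472268, plus strand), a transcriptional activator and the usual readout of the pathway, had the largest fold difference of the members but few reads. Its normalized counts were 2.29, 10.8 and 8.02 in Control and 23.7, 27.6 and 15.3 in KO, from 20 reads in all Control libraries and 73 in all KO libraries. Every clone was above every Control replicate, and Control replicate 1, with 2 reads, was the lowest. The means were 7.02 ± 4.32 and 22.2 ± 6.31 (SD, n = 3 per group), with a log2 fold change of 1.68 (SE 0.53, 95% interval 0.45 to 2.92). The p of limma missed the cut-off (unadjusted p = 0.0142, limma adjusted p = 0.0798). The edgeR test on recovered reads gave 1.62 (adjusted p = 0.0696) and DESeq2 gave 1.65 (adjusted p = 0.0716), neither called. It ranged from 1.13 to 2.05 over the 6 fits that left out a library. The 3' end of *GLI1* meets the end of *ARHGAP9* on the opposite strand, and *ARHGAP9* had 2.29, 2.94 and 10.3 normalized counts in Control and 3.96, 10.4 and 11.7 in KO. An annotated lncRNA gene on the opposite strand (57457596 to 57462818) overlaps the 5' part of *GLI1* and was not among the counted genes. Whether reads were counted by strand is not given in the sources used here.

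*GLI2* (chromosome 2, 120735623 to 120992653, plus strand), the main activator downstream of SMO, rose. It had 8.01, 8.81 and 9.16 normalized counts in Control and 17.8, 24.2 and 18.9 in KO, from 24 and 67 reads. The Control replicates held only 7, 9 and 8 reads, so their close spacing cannot be read as a small true spread. Each clone was 2.06 to 2.79 times the Control mean. The mean rose from 8.66 ± 0.592 to 20.3 ± 3.42 (SD, n = 3 per group), a log2 fold change of 1.13 (SE 0.28, 95% interval 0.48 to 1.78, limma adjusted p = 0.0393). The edgeR test called it too (log2 fold change 1.23, adjusted p = 0.0329), while DESeq2 did not (1.23, adjusted p = 0.105). The call was kept in 2 of the 6 fits that left out a library and was lost without any single Control replicate or without clone 2, with log2 fold changes from 1.00 to 1.21 and limma adjusted p-values from 0.0380 to 0.148.

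*GLI3* (chromosome 7, 41960949 to 42264100, minus strand), which acts mainly as the repressor of the family, had 1 read in Control replicate 2 and 0 reads in the other 5 libraries. A count of 0 allows up to 3 reads, or 2.59 to 3.44 normalized counts per library, and these limits cover counting error only.

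**Figure D4:**
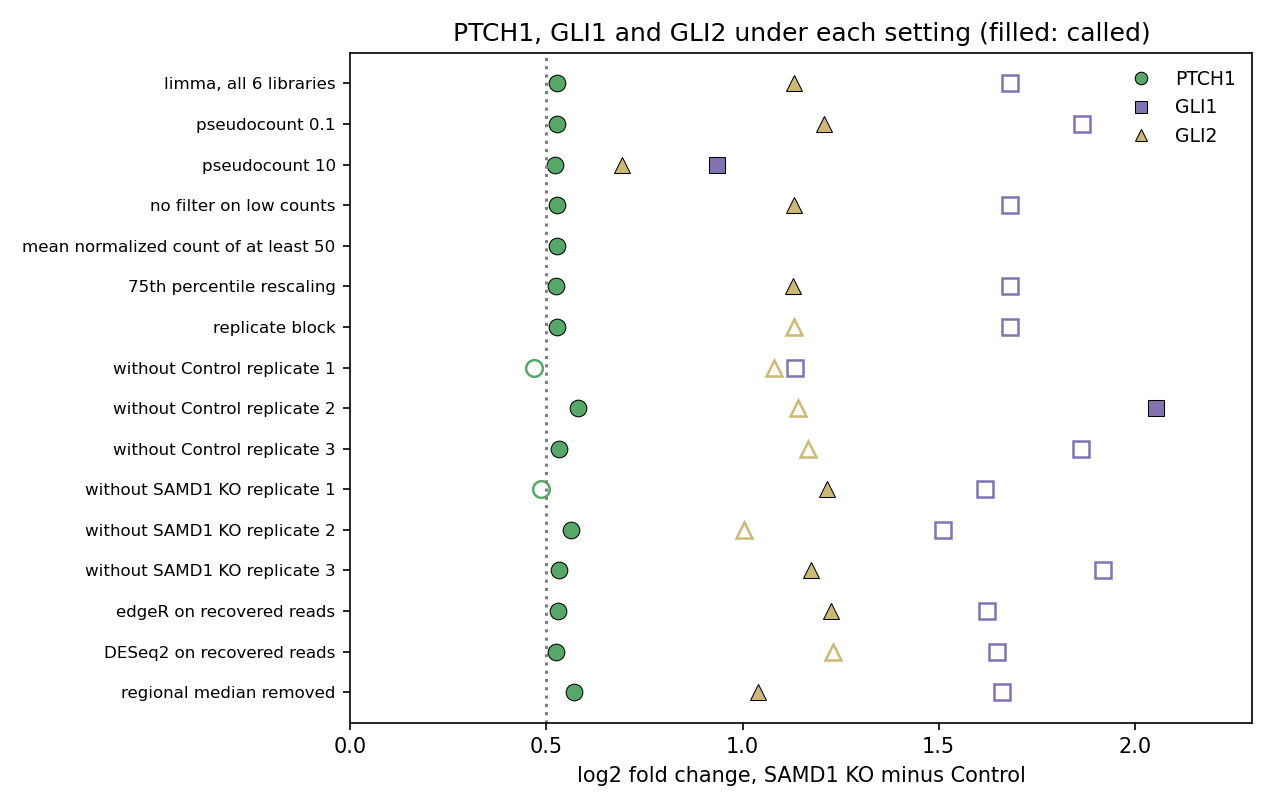
Log2 fold change of *PTCH1*, *GLI1* and *GLI2* (KO minus Control) in the fit to all 6 libraries and under each other setting, with filled symbols where the gene was called and open ones where it was not. *PTCH1* stays within 0.47 to 0.58, on both sides of the dotted fold limit, and *GLI1* and *GLI2* stay above the limit while their calls come and go.

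Per kilobase of merged exon, the members differed widely in level within the Control cells. *SMO* stood at 352.1 ± 16.9 normalized counts per kb, *SUFU* at 169.5 ± 2.38 and *PTCH1* at 49.2 ± 3.81 (SD, n = 3 per group), and these 3 did not overlap with their neighbours in the order. Then came *SHH* at 3.03 ± 1.01, *IHH* at 2.91 ± 0.224, *GLI1* at 1.54 ± 0.948, *GLI2* at 1.12 ± 0.0767 and *HHIP* at 0.232 ± 0.161 normalized counts per kb. *SHH* and *IHH* could not be ordered beyond their spread, nor could *GLI1* and *GLI2*. The Control libraries of *SHH* (from 1.87) and *GLI1* (up to 2.36) overlapped as well. Among all tested genes, 62.5% had a Control level per kb below that of *SMO* and 24.0% below that of *PTCH1*, but 3.25% below that of *SHH* and 0.583% below that of *GLI2*. In the KO clones, *PTCH1* was at 70.8 ± 3.73, *GLI1* at 4.87 ± 1.38, *SHH* at 4.28 ± 0.867 and *GLI2* at 2.63 ± 0.443 normalized counts per kb. *GLI1* thus stood next to *SHH* in the KO order, with overlapping libraries as in Control, and *GLI2* overlapped with *IHH* at 2.21 ± 1.04. These levels compare genes and depend on the annotated exon length.

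Of 30 genes named as GLI targets in various tissues, 19 were tested, 3 rose and 2 fell, against 5.77% and 2.08% of all tested genes, with a median log2 fold change of 0.0053. A further 11 were under the count minimum, and 3 of these had no reads. *JAG2*, a Notch ligand, rose from 693.9 ± 66.6 to 1389 ± 255 normalized counts (SD, n = 3 per group; log2 fold change 0.99, SE 0.14, limma adjusted p = 0.00527). *IGFBP6*, a binding protein of IGF2, rose from 1292 ± 41.8 to 2364 ± 432 (log2 fold change 0.86, limma adjusted p = 0.00554), and *FOXF1*, a forkhead factor of gut mesenchyme, rose from 124.4 ± 9.52 to 223.8 ± 12.5 (log2 fold change 0.84, limma adjusted p = 0.00596). The 2 that fell are named although they were outside the naming rule and chosen after their values were seen. *FOXL1*, which lies near *FOXF1* on chromosome 16, fell from 555.6 ± 78.1 to 305.4 ± 92.5 (log2 fold change −0.90, limma adjusted p = 0.0490), and *CDK6*, a cell cycle kinase, from 3198 ± 94.8 to 2259.6 ± 353 (log2 fold change −0.51, limma adjusted p = 0.0262).

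The last list holds 33 genes of a public gene set that carries the Hedgehog name and is rich in neuronal guidance and adhesion genes, without the members above. Of these, 27 were tested, 9 rose and 1 (*CDK6* again) fell, against 5.77% and 2.08% of all tested genes, and the median was 0.39 on the log2 scale. The list was written with earlier results of these data known, so its direction is not independent evidence. The genes with the smallest p were *HEY1*, *HEY2* and *VLDLR*. *HEY1* and *HEY2* encode repressors best known as Notch targets. *HEY1* had 38.9, 55.8 and 42.4 normalized counts in Control and 210.6, 232.4 and 357.1 in KO (log2 fold change 2.50, limma adjusted p = 0.00137), and *HEY2* had 30.9, 31.3 and 29.8 against 128.5, 178.0 and 154.7 (log2 fold change 2.28, limma adjusted p = 0.000698). *VLDLR*, a lipoprotein and reelin receptor, rose from 760.7, 679.0 and 776.6 in Control to 1310.2, 1309 and 1375 in KO (log2 fold change 0.85, limma adjusted p = 0.00108). For each of the 3 genes all clones were above all Control libraries.

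Across the 5 lists of pathway genes other than the members, which hold 103 different genes, 86 were tested, and 8 rose and 3 fell, against 5.77% and 2.08% of all tested genes. Of the 86, 58 were above 0, where 48.8% of all tested genes were, and the median log2 fold change was 0.12. At an adjusted limma p below 0.05, whatever the fold, 16 were higher and 3 lower, compared with 8.32% and 4.7% of all tested genes. Of the 8, 4 were the ligand-binding proteins, 3 the targets and 1 the cilium gene described above.

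**Figure D5:**
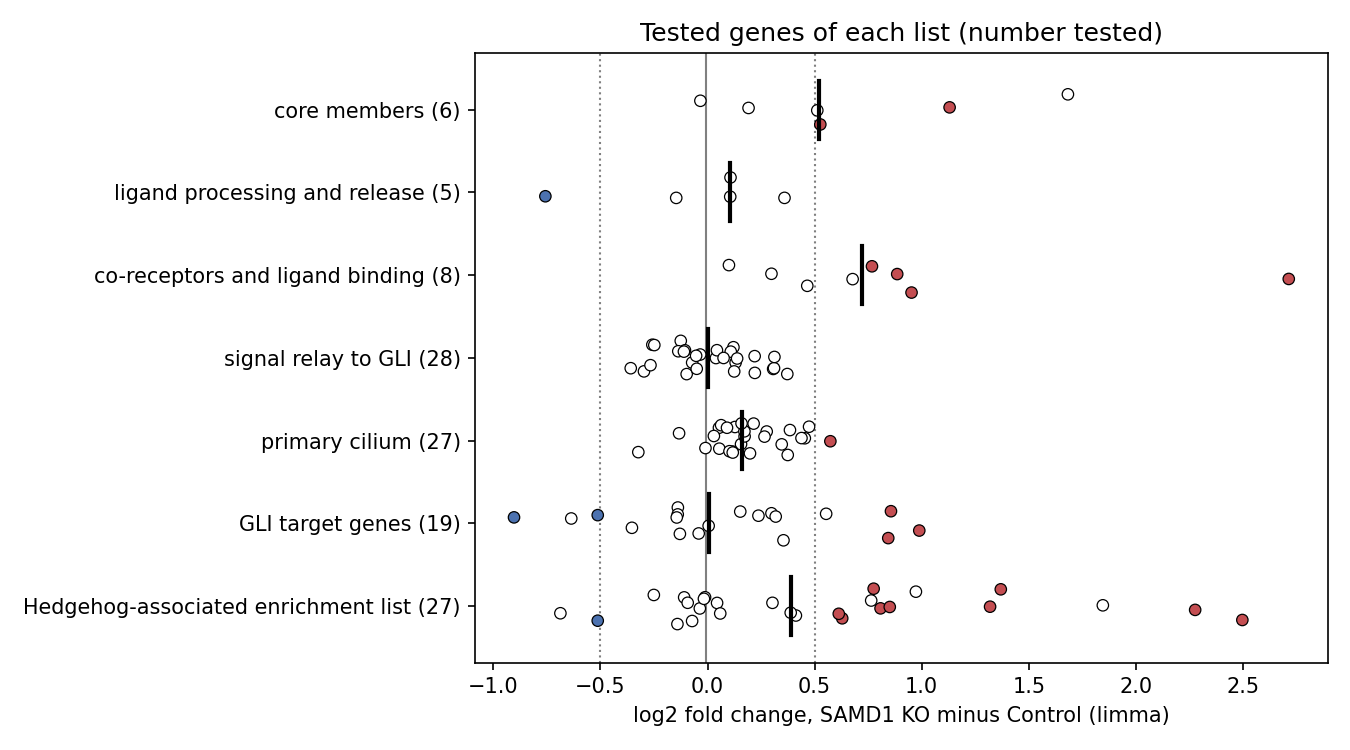
Limma log2 fold change of each tested gene (points) by list, with the number tested in brackets, red for genes called higher, blue for called lower, white for not called, a black bar at the list's median, a grey line at the median of all tested genes (−0.0059) and dotted lines at the fold limit of 0.5. The 8 tested co-receptor and ligand-binding genes are all right of 0, while the 28 relay genes center on 0.0026.

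The genes most like the called members over the 6 libraries were found by the root mean square difference of centered log2 values, among genes with a mean of at least 50 normalized counts. For *PTCH1* these were *FARP2* (0.0268), *TFEB* (0.0418) and *PPP2R2C* (0.0491) of 11452 genes. *FARP2* had 714.4 ± 46.3 normalized counts in Control and 1026 ± 66.9 in KO (SD, n = 3 per group). For *GLI2* they were *NOTUM* (0.0666), *SIRPA* (0.0779) and *ATXN1* (0.0854) of 11453 genes. *NOTUM*, a secreted WNT deacylase, had 76.1 ± 4.98 and 166.7 ± 29.2. The values describe 6 libraries in 2 groups and carry no test.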

How the data were processed

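Total RNA from 3 Control replicates and 3 *SAMD1* KO clones of PaTu8988t cells was sequenced as stranded mRNA libraries. Per the study's methods and the submitters' processing notes, the authors aligned reads with STAR to hg38 with GENCODE 43, counted them per gene with featureCounts and normalized them with DESeq2. The deposited values are a signal, namely normalized counts (reads divided by a size factor of the library). Whole reads were recovered from the steps of this signal, with 100% of the values whole within a tolerance of 0.02. A deposited DESeq2 table holds the authors' comparison (mean, fold change, standard error, Wald statistic and p-values) and was not used.

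Groups were taken from the labels. Where nothing more is said, limma 3.58.1 (R 4.3.3, trend) was fitted to log2(normalized count + 1) of the 12773 genes with a mean of at least 10, with Benjamini-Hochberg adjustment over all of them. Fold changes on this scale understate those of low genes. The KO samples are separate clones, but nothing says whether the Control replicates came from separate clones or cultures, so their spread may be technical. Replicate libraries differed by more than sampling noise, and KO clones far more than Control libraries. The chi-square of the read counts per degree of freedom was 2.76 to 5.48 between Control libraries and 53.3 to 61.6 between KO clones. The limma fit takes the same variance for both groups. edgeR 4.0.16 and DESeq2 1.42.0 on recovered reads, other pseudocounts and minimums, a rescaling, a replicate block, removal of regional medians (20 genes on either side) and leaving out each library were alternatives. On data simulated for this comparison (12773 genes, 200 of them changed 2-fold), limma recovered 194, edgeR 195 and DESeq2 189, and they called 22, 21 and 4 unchanged genes. The simulation gave every gene and both groups the same dispersion, so the larger spread among the KO clones was not covered. Smaller changes were not simulated.

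The members and gene lists were chosen with earlier results of these data known. Named genes are all members, *SAMD1* and up to 3 genes of smallest p in each list. They also include the called genes of the ligand, co-receptor and relay lists. Genes overlapping a member are named where they were among the counted genes, and so are the 3 genes most like each called member. Other genes are named where a count or a comparison with a relative needs them, a choice made with their values known. Positions are from GENCODE 44 (19734 symbols matched, 188 through older symbols) and promoter sequences from RefSeq. Of the genes counted in the lists, 1 is not reported here by name.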

Additional observations from a re-analysis of the deposited data

How the results depend on the processing

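The call of *PTCH1* and *GLI2* as higher depended on the setting for *GLI2* more than for *PTCH1*. The number of members called higher, 2 with limma, was 1 with a minimum mean of 50, which removes *GLI1* and *GLI2*, 1 with DESeq2, and between 0 and 2 when each library was left out (0 without Control replicate 1, and 1 without Control replicate 3, clone 1 or clone 2). With a pseudocount of 10 it was 3, since *GLI1* was then called at 0.93, and without Control replicate 2 *GLI1* was called at 2.05. Members called lower numbered 0 under every alternative. The number of other pathway genes called lower, 3 with limma, was 1 with edgeR and between 0 and 3 when each library was left out (0 without Control replicate 2, and 1 without Control replicate 1, Control replicate 3 or clone 2), while that called higher lay between 7 and 11. Of 444 comparisons of 28 named genes with an alternative, 413 kept direction and side of the threshold, 28 lost the call, 3 gained it and 0 changed direction. The cause of these changes was not tested.

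With the replicate number as a block, 1 member was called higher, namely *PTCH1* (limma adjusted p = 0.0302). *GLI2* was then not called (limma adjusted p = 0.0857). Deviations of same-numbered libraries correlated at 0.039, 0.13 and 0.032, which did not exceed 0.1 in every pair, so the samples were taken to share only a number. Control replicates 1 and 2 correlated best with the clone of their own number, and Control replicate 3 about equally with clone 1 (0.036) and clone 3 (0.032). No scaling moved the median of all tested genes beyond 0.01 on the log2 scale. With 20 to 74 reads per group, depth limits *SHH*, *GLI1* and *GLI2*, and differences in *IHH*, *HHIP* and *GLI3* were not detectable.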

Other observations

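In 2 genes of the lists, chosen after their values were seen, a single clone stood apart. *EVC*, which encodes a ciliary partner of SMO, had 75.5, 61.6 and 52.7 normalized counts in Control replicates 1 to 3 and 36.6, 36.3 and 289.6 in *SAMD1* KO clones 1 to 3, so that clones 1 and 2 were below every Control library and clone 3 above. *TLE3*, a co-repressor, had 9.15, 9.78 and 10.3 in Control, 105.8 in clone 1, and 8.64 and 8.10 in clones 2 and 3. Neither gene was called in the comparison of the groups.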
